A study of Homo sapiens with 6 samples.

Results

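The long noncoding RNAs described here carry the name of another gene followed by -IT or -OT and a number. They were taken from a human transcriptome array as the features with a single gene symbol of that form, keeping the brightest feature of each symbol. There were 85 such lncRNAs, 82 named -IT and 3 named -OT, among 67528 transcript clusters (the array's groups of probes for 1 locus). The change of each was set against that of its base gene, the gene whose name precedes the suffix.

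In human gene nomenclature, -IT marks a noncoding transcript that lies within an intron of the named gene and is read from the same strand. -OT marks one that overlaps the named gene on the same strand. RNA of an intronic transcript has the letters of the unspliced RNA of its base gene, so an array probe inside an intron can bind either one. The 2 sources of signal cannot be told apart in these values.

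RNA was measured in H460 cells, an established line of human non-small cell lung cancer with wild-type p53 and no functional LKB1 kinase. Total RNA came from 3 replicates of cells that had received 7 Gy of radiation (irradiated) and from 3 of cells that had received none (control), with no other treatment named. The titles describe the replicates as biological but name no separate cultures, so p-values measure the spread between these samples, which may be partly technical. How long after irradiation the RNA was taken is not stated in the sources used here. Array medians lay between 4.65 and 4.695 on the log2 scale, and correlations between arrays across transcript clusters were 0.9955 to 0.9964 among irradiated arrays and 0.9966 to 0.9975 among control arrays. The 18 measured genes of a list of 20 p53 targets were all higher in irradiated cells, with a median log2 difference of 0.88, led by GDF15 at 2.93, TP53INP1 at 2.45 and MDM2 at 2.06. Among the epithelial markers, mean log2 signals were 10.9 for the keratin KRT8, 10.2 for the keratin KRT19 and 4.04 for the adhesion gene EPCAM. Differences ranged between -0.19 and 0.17 for the epithelial markers, -0.02 and 0.15 for the fibroblast markers and -0.17 and 0.28 for the blood markers. Mean log2 signals were at or above 3.74, the median of the array's background controls, for 5 of 7 measured fibroblast markers. The same held for 5 of 7 measured blood markers. The highest were 6.66 for COL5A1 of the fibroblast list and 9.06 for CD68 of the blood list. DCN (fibroblast, 2.92) and PTPRC (blood, 2.88) lay under 3.74. In bulk RNA, fewer cells of a type and less RNA per cell cannot be told apart.

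The reference gene table (RefSeq, GRCh38.p14) held 84 of the 85 names, 78 of them as lncRNAs with a median length of 4530.5 bases. It placed 69 within the span of the base gene. SPANXA2-OT1 contained its base gene, and C21orf91-OT1 and KCNJ6-IT1 overlapped theirs at an end. KCNJ6-IT1 is now called KCNJ6-AS1 and lies on the other strand. BACH1-IT2, BACH1-IT3, EMCN-IT1, EMCN-IT2, MLIP-IT1 and SLIRP-OT1 lay apart from the gene in their name. Another 6 names, BRD2-IT1, EHMT1-IT1, ENO1-IT1, IMMP2L-IT1, NRG1-IT2 and TTLL11-IT1, are now synonyms of the base gene itself, and BRWD1-IT2 had no entry. BRD2-IT1 had the same values as 5 other rows of the table. The name therefore does not settle the position of every member.

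The starts of these lncRNAs looked unlike those of the genes that host them. Protein-coding promoters are often CpG islands, stretches of DNA rich in the CG dinucleotides that are scarce elsewhere in the genome. The 2 pairs RSF1-IT1 with RSF1 and ALMS1-IT1 with ALMS1 are printed to show the contrast, because both appear in the results below. CPS1, the base gene of the only called lncRNA, is printed as a base gene whose start is not CG-rich. Each window runs 5′ to 3′ over 250 bases before and 50 bases after the annotated start (RefSeq, GRCh38.p14), with every CG in capitals. RSF1-IT1 is chr11:77739660-77739959 and RSF1 is chr11:77820673-77820972, both on the minus strand. ALMS1-IT1 is chr2:73456853-73457152, ALMS1 is chr2:73385508-73385807 and CPS1 is chr2:210477435-210477734, all on the plus strand.
RSF1-IT1: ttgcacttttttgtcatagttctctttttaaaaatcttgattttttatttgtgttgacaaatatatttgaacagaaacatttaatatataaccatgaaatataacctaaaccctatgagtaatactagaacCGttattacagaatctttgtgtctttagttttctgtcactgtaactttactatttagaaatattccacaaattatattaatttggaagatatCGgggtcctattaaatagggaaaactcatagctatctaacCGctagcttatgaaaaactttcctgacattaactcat
RSF1: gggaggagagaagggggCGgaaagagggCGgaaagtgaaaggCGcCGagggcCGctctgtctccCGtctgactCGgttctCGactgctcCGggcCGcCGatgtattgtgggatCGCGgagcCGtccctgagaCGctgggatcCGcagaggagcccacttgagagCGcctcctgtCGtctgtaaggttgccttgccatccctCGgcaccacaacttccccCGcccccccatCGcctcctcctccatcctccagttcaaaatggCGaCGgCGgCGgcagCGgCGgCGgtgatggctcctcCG
ALMS1-IT1: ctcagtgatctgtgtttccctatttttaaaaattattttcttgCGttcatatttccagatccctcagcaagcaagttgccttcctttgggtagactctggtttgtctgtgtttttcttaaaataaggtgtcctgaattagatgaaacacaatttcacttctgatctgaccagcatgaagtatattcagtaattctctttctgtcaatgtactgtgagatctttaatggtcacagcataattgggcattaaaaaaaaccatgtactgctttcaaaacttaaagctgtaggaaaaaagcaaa
ALMS1: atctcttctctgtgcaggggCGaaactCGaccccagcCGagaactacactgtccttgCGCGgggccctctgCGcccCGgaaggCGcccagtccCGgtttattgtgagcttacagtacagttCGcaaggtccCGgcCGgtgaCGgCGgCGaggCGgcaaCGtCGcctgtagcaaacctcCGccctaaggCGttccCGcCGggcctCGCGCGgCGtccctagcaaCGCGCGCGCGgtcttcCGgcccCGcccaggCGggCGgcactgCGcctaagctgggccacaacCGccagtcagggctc
CPS1: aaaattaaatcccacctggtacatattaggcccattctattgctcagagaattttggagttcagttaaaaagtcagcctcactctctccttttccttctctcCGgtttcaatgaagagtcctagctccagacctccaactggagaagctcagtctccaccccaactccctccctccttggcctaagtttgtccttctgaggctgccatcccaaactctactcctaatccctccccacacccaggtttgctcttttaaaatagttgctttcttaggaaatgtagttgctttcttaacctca

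The RSF1-IT1 window had 3 CG dinucleotides and 27.67% G and C, against 29 CG and 66.67% in the window of RSF1, a subunit of a chromatin remodelling complex. The ALMS1-IT1 window had 1 CG and 35% G and C, against 37 CG and 69.33% for ALMS1, a centrosomal protein mutated in Alström syndrome. The CPS1 window had 1 CG and 45.33%. The windows of both lncRNAs and of CPS1 were lower in G and C and in CG than those of RSF1 and ALMS1.

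Windows of this kind were given for 50 of the 85 lncRNAs and for 62 of the 74 measured base genes. The lncRNA windows held a median of 3 CG (0 to 23), the base gene windows 26.5 (1 to 54) and the 27305 windows of all genes 13. There were 10 or more CG in 3 of the 50 lncRNA windows (6.0%), in 47 of the 62 base gene windows (75.8%) and in 55.0% of all windows. Of 41 lncRNAs with a window for themselves and for the base gene, 36 had fewer CG than the base gene and 5 had more. These counts describe the sequence around annotated starts and hold no measurement from the arrays.

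Motifs were searched on both strands. The GC box GGGCGG occurred in 4 lncRNA windows (8.0%), in 36 base gene windows (58.1%) and in 43.8% of all windows. The TATA box letters TATAAA occurred in 6 lncRNA windows (12%), in 6 base gene windows (9.68%) and in 12.1% of all windows. The letters CCAAT occurred in 19 lncRNA windows (38.0%), in 19 base gene windows (30.6%) and in 35.6% of all windows. The GC box was thus the motif whose share differed most between the lncRNAs and the base genes. Its letters are all G and C and hold a CG, so its share is not independent of the CG counts above. No motif contains another, although matches can share end bases, and a match is a description of the sequence, not a binding site.

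**Figure D1:**
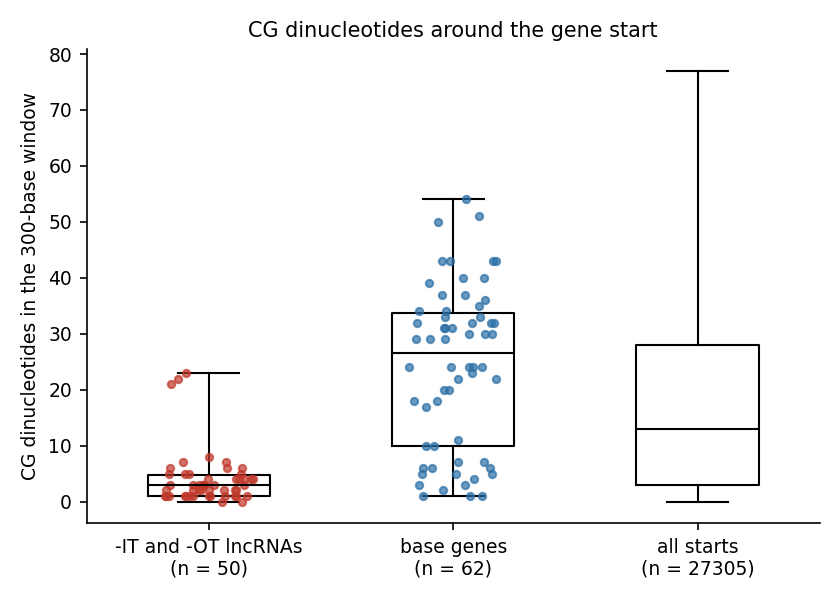
Number of CG dinucleotides in the 300 bases around the annotated start (y axis) for 50 -IT and -OT lncRNAs, 62 base genes and all 27305 starts of the table, with points for the lncRNAs and base genes. Boxes span the quartiles with the median, and whiskers reach the lowest and highest value. The lncRNAs have a median of 3, the base genes 26.5 and all starts 13.

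Few of these lncRNAs differed between irradiated and control cells beyond the spread of the arrays. Each difference below is the irradiated mean minus the control mean of log2 signals. The threshold for a call was an adjusted p under 0.05 in limma over all 67528 transcript clusters. Of the 85 lncRNAs, 1 was higher and 0 were lower (1.18%), against 5.05% of all transcript clusters, 2.25% higher and 2.8% lower. At an unadjusted p under 0.05 in limma, 9 of the 85 were higher and 1 was lower. Among all 67528 transcript clusters, 7277 were higher and 5131 lower at that level. Neither the limma fit with an intensity trend nor the unmoderated linear model called a lower lncRNA. The median difference was 0.03 over the lncRNAs and 0.03 over all transcript clusters. Positive differences numbered 54 of 85 among the lncRNAs and 40984 of 67528 among all transcript clusters. The lncRNA differences ranged between -0.15 and 0.65, with 58 of the 85 within 0.1 of zero. There were 8 at an absolute value of 0.2 or more and 3 at 0.3 or more.

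The signals of the lncRNAs were set beside those of the array's background controls. Their mean signal over the 6 arrays had a median of 3.87 and a range of 2.27 to 7.18. It lay under the median background control of 3.74 for 39 of them and at or above it for 46. Among all transcript clusters, 0.668% of those under that level were called and 7.26% of those at or above it, and the lncRNAs had 0 of 39 and 1 of 46. The median within-group SD was 0.0954 for the lncRNAs and 0.079 for all transcript clusters. The 23 background controls had mean signals between 2.17 and 11.67, so a signal under 3.74 is not shown to be background. The part of low signal in the small number of calls was not tested.

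Other lncRNAs named by a similar rule were counted in the same fit. Of 770 lncRNAs named -AS (antisense), 1.69% were called, with a median difference of 0.03 and a median signal of 4.55. Of 77 named -DT (divergent), 1.3% were called. Of 539 named LINC (intergenic), 1.11% were called, with a median difference of 0.04 and a median signal of 4.13. The lists were not tested against each other.

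**Figure D2:**
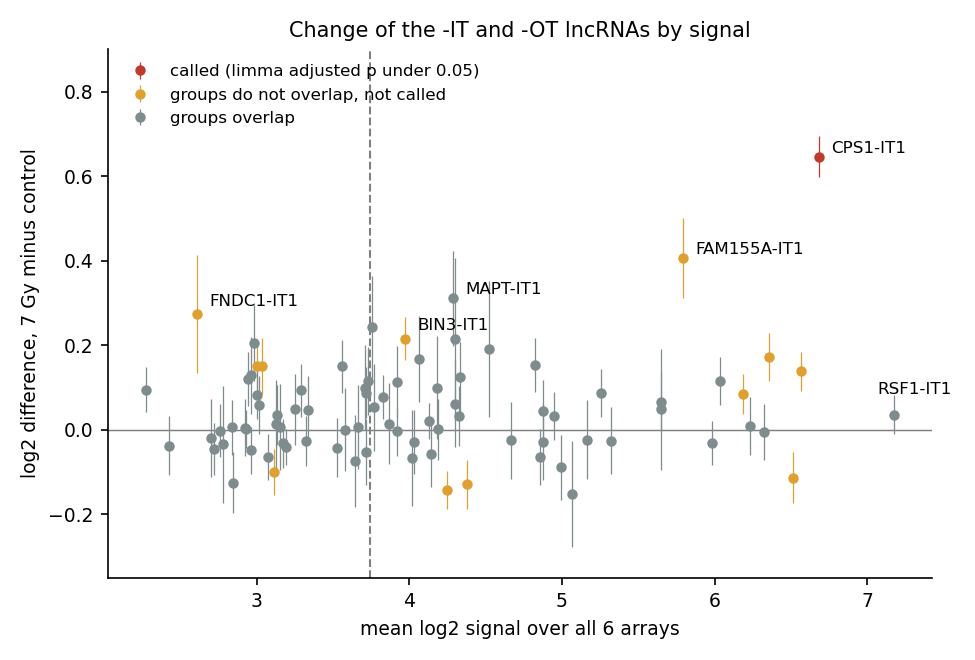
Difference in log2 signal, 7 Gy minus control (y axis, with its standard error), against the mean log2 signal over all 6 arrays (x axis) for the 85 lncRNAs, with called and uncalled ones marked and the background control median of 3.74 as a line. CPS1-IT1 stands alone at 0.65, and 58 of the 85 lie within 0.1 of zero.

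The called lncRNA was CPS1-IT1, on chromosome 2. It is named after CPS1, the carbamoyl phosphate synthetase of mitochondria that catalyses the first step of the urea cycle and is expressed in lung cancer cells that lack LKB1. CPS1-IT1 had log2 signals of 7.055, 7.020 and 6.936 in irradiated cells, against 6.379, 6.355 and 6.341 in control cells. Every irradiated array was above every control array. The means were 7.00 ± 0.06 in irradiated cells and 6.36 ± 0.02 in control cells (SD, n = 3 each), a difference of 0.65 (SE 0.05) or 1.56-fold, with an adjusted p of 0.000846 in limma. It stayed called when each array was left out in turn, with differences between 0.62 and 0.68.

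CPS1 itself was also higher in irradiated cells. It had log2 signals of 11.391, 11.319 and 11.386 in irradiated cells, against 11.147, 11.085 and 11.058 in control cells. The groups did not overlap. The difference was 0.27 (SE 0.05, limma adjusted p = 0.0233). With 1 array left out it was called only without irradiated replicate 2, and the adjusted p ranged between 0.0484 and 0.0964.

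The CPS1-IT1 feature changed more than the CPS1 feature. Whether its signal comes from the lncRNA or from unspliced CPS1 RNA cannot be told here. The per-array signal of CPS1-IT1 minus that of CPS1 was -4.336, -4.299 and -4.450 in irradiated cells, against -4.769, -4.730 and -4.717 in control cells. The irradiated values were all closer to zero. The difference between the 2 changes was 0.38 (SE 0.07), with an adjusted p of 0.00573 in limma over the 852 pairs of a suffix-named lncRNA and its base gene. It was called with each array left out in turn, but not in the unmoderated linear model (adjusted p = 0.0631).

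Over the 81 lncRNAs with a measured base gene, 6 changed by an amount unequal to that of the base gene (7.41%), 3 above and 3 below. Among all 852 suffix-named pairs 8.92% were called, 5.05% above and 3.87% below. The 3 pairs above were CPS1-IT1, ALMS1-IT1 and BIN3-IT1, and the 3 below were all named after NRG1. The 81 include the 6 names that are now synonyms of the base gene, among them the called NRG1-IT2. By the reference, those pairs compare features of the same gene. In the unmoderated linear model 0 of the 81 pairs were called, with 11 at an unadjusted p under 0.05.

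NRG1 encodes neuregulin 1, a growth factor that binds the ERBB3 and ERBB4 receptors. NRG1 had log2 signals of 7.431, 7.440 and 7.450 in irradiated cells, against 6.695, 6.771 and 6.817 in control cells. The groups lay far apart for their spread. The difference was 0.68 (SE 0.05) or 1.60-fold, with a limma adjusted p of 0.000682. A second NRG1 feature had 4.337, 4.459 and 4.395 in irradiated cells, against 4.172, 4.023 and 4.182 in control cells, a difference of 0.27 (SE 0.06, limma adjusted p = 0.0538).

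The lncRNAs named after NRG1 did not pass the test. NRG1-IT1 had 2.969, 3.148 and 3.013 in irradiated cells, against 2.953, 2.929 and 2.998 in control cells (difference 0.08, SE 0.06, limma adjusted p = 0.516). The groups overlapped. NRG1-IT2, a name now merged into NRG1, had 3.208, 3.059 and 3.063 in irradiated cells, against 2.980, 3.036 and 2.863 in control cells (difference 0.15, SE 0.07, limma adjusted p = 0.289). The groups did not overlap, although by a small margin. NRG1-IT3 had 3.044, 3.103 and 2.982 in irradiated cells, against 3.086, 2.858 and 3.009 in control cells (difference 0.06, SE 0.07, limma adjusted p = 0.718), and the groups overlapped.

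Each changed less than the brightest NRG1 feature. The change relative to NRG1 was -0.60 for NRG1-IT1 (SE 0.07, adjusted p = 0.00046 in limma), -0.62 for NRG1-IT3 (SE 0.09, adjusted p = 0.00107) and -0.53 for NRG1-IT2 (SE 0.08, adjusted p = 0.00207). These 3 values share the signal of NRG1 and are not independent of each other. With the mean of the 2 NRG1 features they were -0.39 for NRG1-IT1, -0.42 for NRG1-IT3 and -0.33 for NRG1-IT2, all still called (adjusted p of 0.00505, 0.00542 and 0.0428 in limma). Pairs with the second NRG1 feature alone, whose own difference was 0.27, were not tested. All 3 lncRNAs had mean signals under the background control median of 3.74. The part of that low signal in their difference from NRG1 was not tested.

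ALMS1-IT1 and its base gene differed in opposite directions, neither past the test alone. ALMS1-IT1 had 4.402, 4.300 and 4.484 in irradiated cells, against 4.212, 4.169 and 4.429 in control cells (difference 0.12, SE 0.08, limma adjusted p = 0.485). Control replicate 3 lay within the irradiated range. ALMS1 had 5.700, 5.674 and 5.609 in irradiated cells, against 5.781, 5.859 and 5.983 in control cells (difference -0.21, SE 0.06, limma adjusted p = 0.122), without overlap. The difference between the 2 changes was 0.34 (SE 0.08, adjusted p = 0.0214 in limma). The call was lost without irradiated replicate 3 (0.27, adjusted p = 0.0866) and without control replicate 2 (0.30, adjusted p = 0.105).

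BIN3-IT1 is named after BIN3, a BAR-domain protein that acts on membranes and the actin cytoskeleton. It had 4.059, 4.036 and 4.143 in irradiated cells, against 3.815, 3.899 and 3.877 in control cells (difference 0.22, SE 0.05, limma adjusted p = 0.0603). The groups did not overlap. BIN3 had 5.891, 5.948 and 5.970 in irradiated cells, against 5.992, 5.955 and 5.978 in control cells (difference -0.04, limma adjusted p = 0.709), with overlap. The difference between the 2 changes was 0.25 (SE 0.07, adjusted p = 0.0404 in limma), and it was not called with any 1 of the 6 arrays left out (adjusted p between 0.0551 and 0.154).

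**Figure D3:**
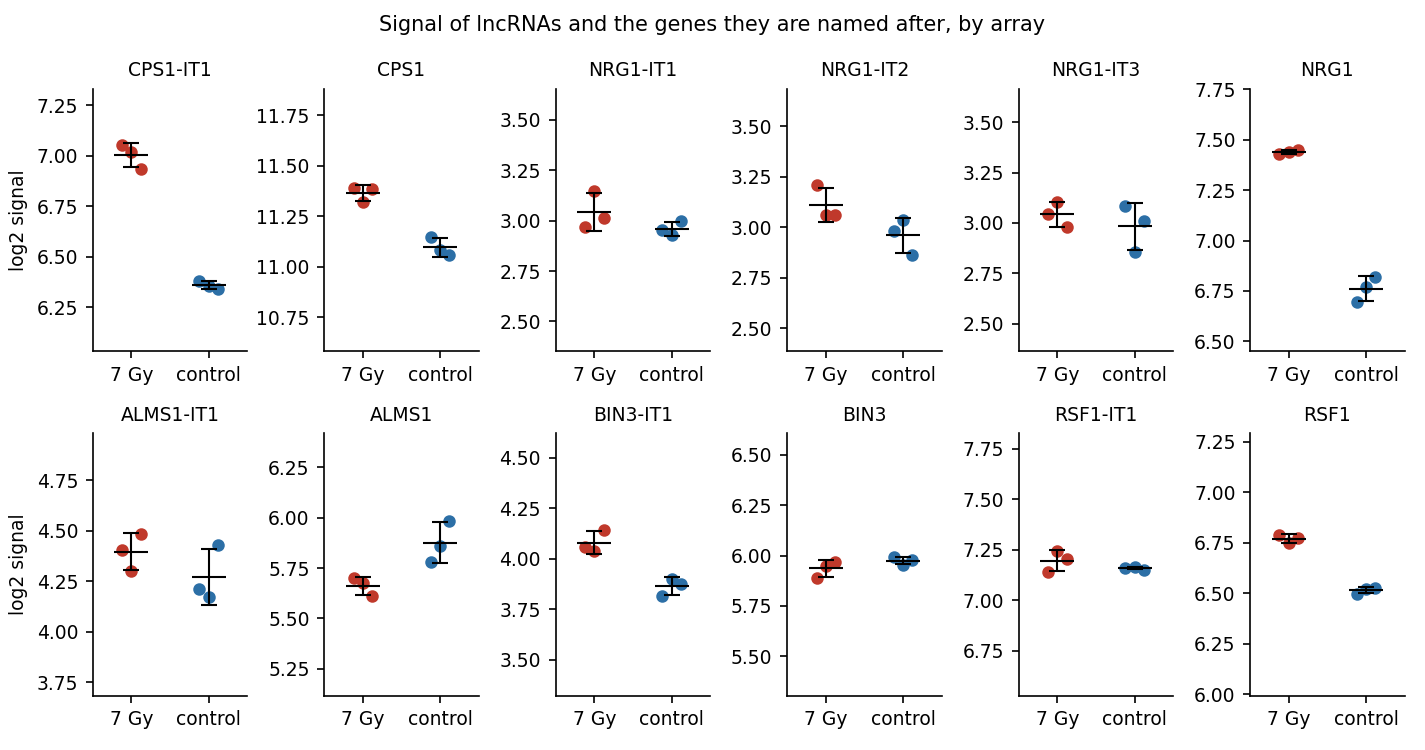
Log2 signal (y axis) of lncRNAs named after CPS1, NRG1, ALMS1, BIN3 and RSF1, and of these base genes. Points are the 7 Gy and control arrays, and bars give the mean and SD of each group (n = 3). Every panel spans the same range of log2 units. CPS1-IT1 and NRG1 separate the groups most widely, and the lncRNAs named after NRG1 lie near 3 in both groups.

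Of the 74 measured base genes, 5 were higher and 1 was lower (8.11%), against 11.2% of protein-coding genes, 4.4% higher and 6.83% lower. The higher ones were NRG1, CPS1, RSF1, PLCB1 and N4BP2L2, and the lower one was ANP32A. Their lncRNAs other than CPS1-IT1 were not called.

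RSF1 had 6.791, 6.747 and 6.772 in irradiated cells, against 6.498, 6.522 and 6.526 in control cells (difference 0.25, SE 0.04, limma adjusted p = 0.0166). The groups did not overlap. RSF1-IT1, whose mean signal was the highest of the 85 lncRNA features, had 7.139, 7.242 and 7.201 in irradiated cells, against 7.160, 7.165 and 7.151 in control cells (difference 0.04, SE 0.05, limma adjusted p = 0.747). The control values lay inside the irradiated range. The change of RSF1-IT1 relative to RSF1 was -0.22 and missed the threshold (adjusted p = 0.0762 in limma), so unequal change of this pair was not shown. RSF1 was called with 1 array left out only without irradiated replicate 2, at adjusted p between 0.0486 and 0.0839.

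PLCB1, a phospholipase C that produces second messengers, had 8.998, 9.020 and 9.050 in irradiated cells, against 8.727, 8.789 and 8.839 in control cells (difference 0.24, limma adjusted p = 0.037). The groups did not overlap. PLCB1-IT1 had 3.763, 3.514 and 3.464 in irradiated cells, against 3.618, 3.428 and 3.693 in control cells (difference 0.00, limma adjusted p = 0.998). N4BP2L2 had 5.594, 5.556 and 5.612 in irradiated cells, against 5.338, 5.308 and 5.404 in control cells (difference 0.24, limma adjusted p = 0.0343). Again the groups of the base gene stood apart. N4BP2L2-IT2 had 4.182, 3.767 and 4.0 in irradiated cells, against 4.185, 4.044 and 3.923 in control cells (difference -0.07, limma adjusted p = 0.809), with overlap. Relative to the base gene, the change was -0.24 for PLCB1-IT1 and -0.30 for N4BP2L2-IT2. Neither pair was called (adjusted p = 0.185 and 0.109 in limma), so unequal change was not shown.

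ANP32A, an acidic nuclear phosphoprotein, had 7.976, 8.190 and 8.168 in irradiated cells, against 8.379, 8.418 and 8.483 in control cells (difference -0.32, SE 0.07, limma adjusted p = 0.0469). All irradiated values were the lower ones. ANP32A-IT1 had 4.935, 4.824 and 5.223 in irradiated cells, against 5.131, 5.336 and 4.967 in control cells (difference -0.15, SE 0.13, limma adjusted p = 0.589), and the groups overlapped. The change of ANP32A-IT1 relative to ANP32A was 0.16 and was not called (adjusted p = 0.479 in limma). PLCB1, N4BP2L2 and ANP32A were not called with any 1 array left out.

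Of the 85 lncRNAs, 13 had groups that did not overlap (15.3%), 9 higher and 4 lower, against 24.6% of all transcript clusters. Besides CPS1-IT1, the widest difference was that of FAM155A-IT1, now NALF1-IT1, named after a gene for an auxiliary subunit of the sodium leak channel NALCN. It had 6.123, 5.993 and 5.864 in irradiated cells, against 5.660, 5.684 and 5.416 in control cells (difference 0.41, SE 0.09, limma adjusted p = 0.0577). Each group was spread widely, and the lowest irradiated value lay above the highest control value. NALF1 differed by 0.09 (limma adjusted p = 0.762). The change of FAM155A-IT1 relative to NALF1 was 0.32, with overlap between groups, and was not called (adjusted p = 0.223 in limma). FAM155A-IT1 was called at an adjusted p of 0.0459 with an intensity trend in the prior variance and at 0.042 when features under the background median were left out. BIN3-IT1, described above, was called at 0.0377 in that filtered fit.

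Other uncalled lncRNAs without overlap were higher in irradiated cells. FNDC1-IT1 had 2.611, 3.088 and 2.543 in irradiated cells, against 2.365, 2.527 and 2.529 in control cells (difference 0.27, SE 0.14, limma adjusted p = 0.362). Irradiated replicate 2 stood above the rest, and without it the difference was 0.10. FNDC1-IT1 lay under the background median on every array. NTM-IT3, named after neurotrimin, a neural adhesion protein, had 6.472, 6.457 and 6.389 in irradiated cells, against 6.267, 6.349 and 6.187 in control cells (difference 0.17, limma adjusted p = 0.162), and NTM itself differed by 0.11. PPP2R2B-IT1, named after a regulatory subunit of protein phosphatase 2A, had 2.995, 3.095 and 3.150 in irradiated cells, against 2.915, 2.938 and 2.933 in control cells (difference 0.15, limma adjusted p = 0.182). It lay under the background median on every array. CAMTA1-IT1, named after a calmodulin-binding transcription activator, had 6.625, 6.635 and 6.636 in irradiated cells, against 6.502, 6.545 and 6.435 in control cells (difference 0.14, limma adjusted p = 0.172). CAMTA1 differed by 0.02, and the change of CAMTA1-IT1 relative to it was not called (0.12, adjusted p = 0.358 in limma).

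A few were lower in irradiated cells on every array without passing the test. ARHGAP22-IT1 had 4.133, 4.215 and 4.171 in irradiated cells, against 4.301, 4.299 and 4.345 in control cells (difference -0.14, limma adjusted p = 0.148). ARHGAP22 differed by 0.02, and the change of ARHGAP22-IT1 relative to it was not called (-0.17, adjusted p = 0.156 in limma). GABPB1-IT1, named after a partner of an ETS transcription factor, had 4.368, 4.373 and 4.208 in irradiated cells, against 4.443, 4.472 and 4.421 in control cells (difference -0.13, limma adjusted p = 0.298). Its base gene GABPB1 differed by -0.18 (limma adjusted p = 0.101). ENO1-IT1, a name now merged into the glycolytic enzyme gene ENO1, had 6.436, 6.481 and 6.461 in irradiated cells, against 6.692, 6.513 and 6.512 in control cells (difference -0.11, limma adjusted p = 0.386), and ENO1 differed by -0.17 (limma adjusted p = 0.0912). For ENO1-IT1, control replicate 1 stood above the other two control arrays.

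Some base genes lend their name to several lncRNAs, and none of those lncRNAs was called. The differences were -0.06 for ASAP1-IT1 and 0.02 for ASAP1-IT2 (ASAP1 -0.05), 0.08 for ATP2B2-IT1 and -0.02 for ATP2B2-IT2 (ATP2B2 -0.03), and -0.06 for BACH1-IT2 and 0.10 for BACH1-IT3. For CACNA1C-IT1, CACNA1C-IT2 and CACNA1C-IT3 they were -0.00, 0.09 and -0.07 (CACNA1C 0.00), and for EMCN-IT1 and EMCN-IT2 they were 0.21 and -0.04 (EMCN 0.08). The sign of ASAP1-IT2 turned under quantile normalization (-0.01). The signs of ATP2B2-IT2 (0.05), BACH1-IT2 (0.02), BACH1-IT3 (-0.00), CACNA1C-IT1 (0.02), CACNA1C-IT3 (0.02) and EMCN-IT2 (0.03) turned when a single array was left out. The same happened for NRG1-IT3 (-0.0048), N4BP2L2-IT2 (0.0406) and PLCB1-IT1 (-0.0905), described above. No direction is read from any of these lncRNAs. ASAP1 regulates ARF GTPases, ATP2B2 is a plasma membrane calcium pump, BACH1 a transcription repressor, CACNA1C a voltage-gated calcium channel and EMCN an endothelial sialomucin.

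The 3 -OT lncRNAs were not called. SPANXA2-OT1 had 6.206, 6.201 and 6.280 in irradiated cells, against 6.182, 6.123 and 6.127 in control cells (difference 0.09, limma adjusted p = 0.395), and the groups were separated by a narrow margin. C21orf91-OT1 differed by -0.03 (limma adjusted p = 0.862) and C21orf91 by 0.18 (limma adjusted p = 0.0804). The change of C21orf91-OT1 relative to C21orf91 was -0.21 and was not called (adjusted p = 0.115 in limma). SLIRP-OT1 had 3.940, 3.840 and 3.972 in irradiated cells, against 3.846, 3.984 and 3.932 in control cells (difference -0.00, limma adjusted p = 0.984). Its base gene SLIRP, a mitochondrial RNA-binding protein, differed by -0.33 (limma adjusted p = 0.085). The change of SLIRP-OT1 relative to SLIRP was 0.33 and missed the threshold (adjusted p = 0.0655 in limma).

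MAPT-IT1 was the only member with more than 1 feature. Its features gave unlike differences, which were not tested against each other. MAPT-IT1, SOX1-OT, EGOT, MESTIT1 and the SOD2 features below were chosen after their values were seen. The brightest had 4.303, 4.596 and 4.432 in irradiated cells, against 4.167, 4.308 and 3.922 in control cells (difference 0.31, SE 0.11, limma adjusted p = 0.199). The other had 4.209, 4.201 and 4.216 in irradiated cells, against 4.248, 4.331 and 4.074 in control cells (difference -0.01, limma adjusted p = 0.963). The groups overlapped in both features.

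The name pattern left out some lncRNAs whose names end in similar letters. KCNQ1OT1, the imprinted transcript of the KCNQ1 locus, had 4.364, 4.520 and 4.284 in irradiated cells, against 4.290, 4.555 and 4.417 in control cells (difference -0.03, limma adjusted p = 0.892). SOX2-OT, which spans the gene for the stem cell factor SOX2, had 3.022, 3.041 and 3.043 in irradiated cells, against 3.053, 3.025 and 3.063 in control cells (difference -0.01, limma adjusted p = 0.917). The groups overlapped for both. SOX1-OT, also outside the pattern, had 4.798, 4.944 and 4.910 in irradiated cells, against 4.627, 4.789 and 4.756 in control cells (difference 0.16, SE 0.06, limma adjusted p = 0.239). Its groups did not overlap, and its base gene SOX1 differed by 0.08. The differences of the remaining ones were -0.16 for EGOT and 0.01 for MESTIT1, with overlap between groups. There were 13 features with an -IT or -OT symbol beside other symbols, which were not members. One of them, carrying SOD2 and SOD2-OT1 (SOD2 is the mitochondrial superoxide dismutase), had 8.465, 8.476 and 8.484 in irradiated cells, against 8.137, 8.230 and 8.235 in control cells (difference 0.27, SE 0.05, limma adjusted p = 0.0193), and another with both symbols differed by -0.03 (limma adjusted p = 0.88). Which of the 2 genes a shared feature measures was not tested.

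Across the 81 pairs, the lncRNA and the base gene differed in the same direction in 48, with 37 both higher and 11 both lower. In 15 the lncRNA was higher and the base gene lower, and in 18 the reverse. The correlation of the differences across pairs was 0.219 (Pearson) and 0.126 (Spearman), or 0.258 (Pearson) over the 78 pairs without NRG1. The CPS1 pair, with the widest lncRNA difference (0.65), was kept in each, and its part in the correlations was not tested. All pairs share the same 6 arrays, and several share a base gene, so these values are descriptions. The median change of the lncRNA relative to its base gene was 0.02, with 42 of 81 within 0.1 of zero. The per-array differences did not overlap between groups in 17 pairs (21.0%), 9 above and 8 below, against 25.8% of all suffix-named pairs.

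**Figure D4:**
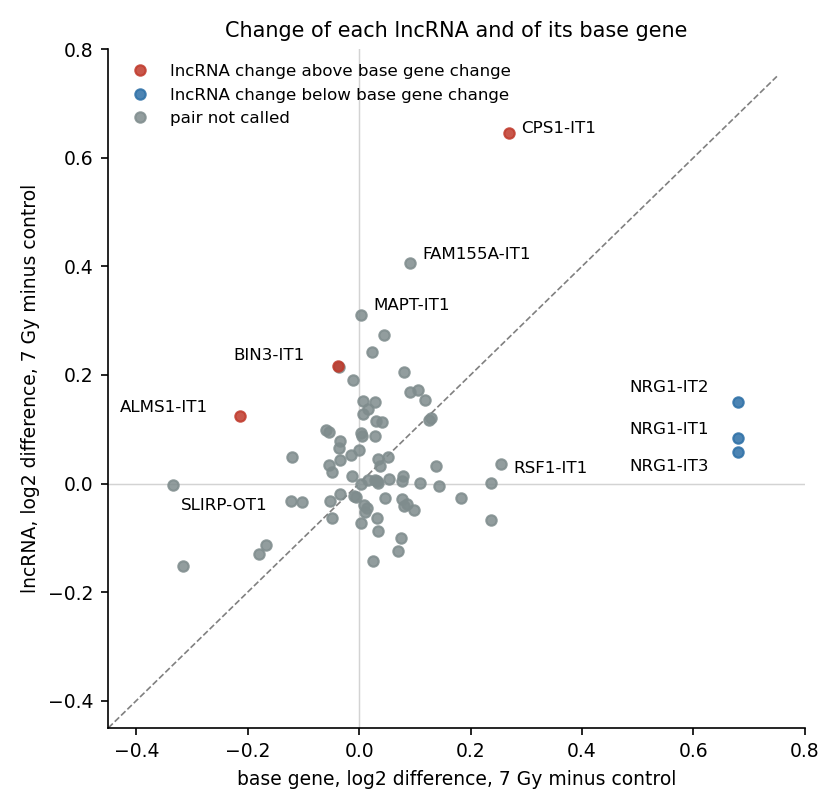
Difference in log2 signal, 7 Gy minus control, of each lncRNA (y axis) against that of its base gene (x axis) for the 81 pairs, with pairs of unequal change coloured and equal change as the dashed line. CPS1-IT1, ALMS1-IT1 and BIN3-IT1 lie above the line, and the lncRNAs named after NRG1 lie below it at 0.68 on the x axis.

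The members were also divided by their position in the reference. The 69 lncRNAs inside their base gene had a median difference of 0.03, and 10 of them had groups without overlap (14.5%). The other 16 had a median of 0.00, and 3 had groups without overlap (18.8%). The share over all transcript clusters was 24.6%. The 2 sets were not tested against each other.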

How the data were processed

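Total RNA of the 6 samples was hybridised to the GeneChip Human Transcriptome Array 2.0. The authors deposited log2 gene-level signals for 70523 features of each array. Per the labels they are an RMA gene-level signal, whereas the submitters' processing notes name MAS5, so the summary method is not settled. No source used here gives the array's annotation build. The number of arrays limits the precision, and signals of different features also depend on their probes, so their order is no order of RNA amounts. Group means were compared with limma 3.58.1 (two-sided, R 4.3.3), with Benjamini-Hochberg adjustment over 67528 transcript clusters. Unequal change was tested with limma on the per-array difference between lncRNA and base gene, adjusted over 852 suffix-named pairs (-AS, -DT, -IT, -OT). A base gene was found by symbol or synonym and represented by its brightest single-symbol feature, and 4 of the 85 lncRNAs had none. Named were the called lncRNAs, base genes and pairs, up to 10 uncalled lncRNAs without overlap between groups, the 5 brightest, those sharing a base gene and 2 lncRNAs just outside the pattern. The members and lists were chosen with earlier results of these data known. The alternatives are in the closing section.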

Additional observations from a re-analysis of the deposited data

How the results depend on the processing

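Leaving out each array in turn gave 1 called lncRNA every time, 1 to 4 called base genes, 4 to 7 called pairs and 1559 to 2379 called transcript clusters, against 1, 6, 6 and 3411 with all arrays. A single base gene was called without any 1 array other than irradiated replicate 2, and transcript clusters fell by over 1.5 times without any 1 array other than irradiated replicate 1. Called lncRNAs numbered 2 of 85 with an intensity trend, where 4150 of 67528 transcript clusters were called. When features under the background median were left out, 3 of 46 lncRNAs and 4161 of 44925 transcript clusters were called. That filter left 3 of 40 pairs called, since the lncRNAs named after NRG1 were removed, and the unmoderated linear model called 0 pairs (11 at an unadjusted p under 0.05). The same-numbered replicates did not deviate together (correlations -0.011, -0.073 and -0.039). With the replicate block, 2 lncRNAs, 1 base gene, 5 pairs and 1598 transcript clusters were called, the second lncRNA being FAM155A-IT1. The median difference of the lncRNAs was 0.01 after centring the arrays and -0.0044 after quantile normalization, so its sign depends on scaling. CPS1-IT1 was called under all 15 alternatives. No called value reversed its direction. The cause of the other changes was not tested. Mean signals of 39 of the 85 lncRNAs lay under the median background control, and the effect of that on detection was not tested.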
